A study of Mus musculus with 10 samples.

Results

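The genes described here encode proteins of endosomal sorting and carry the symbols Vps (vacuolar protein sorting), Chmp (charged multivesicular body protein) or Snx (sorting nexin). They were chosen by symbol, as Vps, Chmp or Snx followed by a digit. This rule uses no measured value, but it was set with earlier results of these data known. The rule took 66 of the 14738 genes of the deposited table, of which 30 were Vps, 10 were Chmp and 26 were Snx genes. RNA had been sequenced from regulatory T (Treg) cells, the CD4 T cells that express Foxp3 and hold immune responses in check, sorted from mouse spleen. The Flcn KO cells came from Foxp3-Cre marrow with both Flcn alleles flanked by loxP sites (Flcn fl/fl), and the WT cells came from Foxp3-Cre marrow without them. Both groups therefore carried the Cre and the Foxp3-YFP reporter used in the sort, and Flcn was to be deleted in cells that express Foxp3. In both groups this marrow had been mixed in equal parts with CD45.1+ marrow to make chimeric mice, and the sorted cells were CD45.2+ and CD45.1-. Each group had 5 libraries, described as biological replicates, and no age, time after transplant, sex or batch was given in the sources used here.

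Endosomes receive membrane proteins from the cell surface and either return them or send them to the lysosome for breakdown. The ESCRT complexes, which include the Chmp proteins, sort ubiquitin-tagged cargo into inner vesicles, while retromer and sorting nexins that bend membranes with a BAR domain pull cargo out into recycling tubules. The HOPS and CORVET complexes tether endosomes before they fuse with each other or with lysosomes, and GARP tethers carriers from endosomes at the trans-Golgi network. In T cells these routes handle receptors that are taken up from the surface, such as the T cell receptor and CTLA-4. Folliculin, the product of Flcn, acts at the lysosome surface on the Rag GTPases, and through them on the transcription factors TFEB and TFE3, which drive many lysosomal genes.

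Read totals over the table's genes lay between 1914516 and 4153854 per library. The share of mitochondrial rRNA reads was 44.1% in WT replicate 1, against 24.7% to 31.8% elsewhere. WT replicate 1 was the highest or the lowest of the 5 WT libraries for 45 of the 66 members (68.2%), and for 60.9% of all tested genes. Flcn itself averaged 138 ± 14.4 normalized counts in the libraries labelled Flcn KO and 54.2 ± 13.8 in WT libraries (SD, n = 5 each; exact two-sided permutation test over 252 splits, p = 0.00794), higher in the libraries labelled Flcn KO. A value per gene cannot show which exons were read, so it is no check of the genotype, and directions are given by label. The 8 Treg markers summed to 10440 to 11646 normalized counts in Flcn KO libraries and 11538 to 12976 in WT libraries. The 14 B cell markers summed to 481 to 1097 in Flcn KO libraries and 385 to 647 in WT libraries, and the 14 measured myeloid and dendritic cell markers summed to 700 to 1061 in Flcn KO libraries and 565 to 809 in WT libraries. The CD8 T and NK cell markers measured, 6 of 8, summed to 79.9 to 148 in Flcn KO libraries and 80.8 to 120 in WT libraries. No measured marker of these lists was at 0 in all 10 libraries, and the part of other cells in the members' values was not tested. In bulk RNA of sorted cells, fewer cells of a type and less RNA per cell cannot be told apart.

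A normalized count here is a gene's read count divided by 1 size factor per library. Each of the 66 members had reads in all 10 libraries, as did 12732 of the 14738 genes of the deposited table. The lowest mean of any gene in that table was 2.02 normalized counts. The members' means, which also depend on transcript length, ran from 7.29 normalized counts for Snx8 to 1156 for Vps54. Of the 66 members, 56 had more reads than the median tested gene, at 31.5 normalized counts. Most members had similar levels in both genotypes. For 2 sorting nexins and 1 tethering subunit the groups did not overlap, a share close to that over all tested genes. In limma on log2(normalized count + 1), with Benjamini-Hochberg adjustment over all tested genes and a threshold of 0.05, 2 members were higher in Flcn KO cells and 0 were lower. The 2 were Snx30 and Snx5, and the same test called 1.71% of all tested genes (0.944% higher, 0.768% lower). At an unadjusted p under 0.05, limma placed 7 members higher and 4 lower, where it placed 7.16% of all tested genes higher and 6.88% lower. The edgeR quasi-likelihood test on the whole reads behind the normalized counts, which tested 64 members, called 6 at the same threshold, against 5.64% of its tested genes (3.02% higher, 2.62% lower). Its 4 higher members were Snx5, Snx30, Vps35 and Vps26a, and its 2 lower members were Vps54 and Snx13. DESeq2 on the same reads called the same 6, and 727 of 14738 genes in all. An adjusted p under 0.05 was given to 5 members in the authors' deposited table, the same genes without Snx13, and to 4.77% of its genes (2.48% higher, 2.29% lower). All 5 Flcn KO libraries lay above all 5 WT libraries for Snx5 and Snx30, and below them for Vps54. Groups failed to overlap in this way for 4.92% of all tested genes (2.47% higher, 2.45% lower).

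The median log2 fold change of the 66 members (Flcn KO over WT) was 0.00036, against 0.0034 over all tested genes, and 33 of the 66 were positive. Fold changes of 58 members (87.9%) lay within 0.5 on the log2 scale, where 77.9% of all tested genes lay. The median size of the change, without its sign, was 0.16 for the members and 0.23 for all tested genes. Among 4308 tested genes of the members' middle range of levels it was 0.17. By family the median was 0.00036 for Vps, -0.023 for Chmp and -0.027 for Snx genes, and each family had as many positive as negative members.

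**Figure D1:**
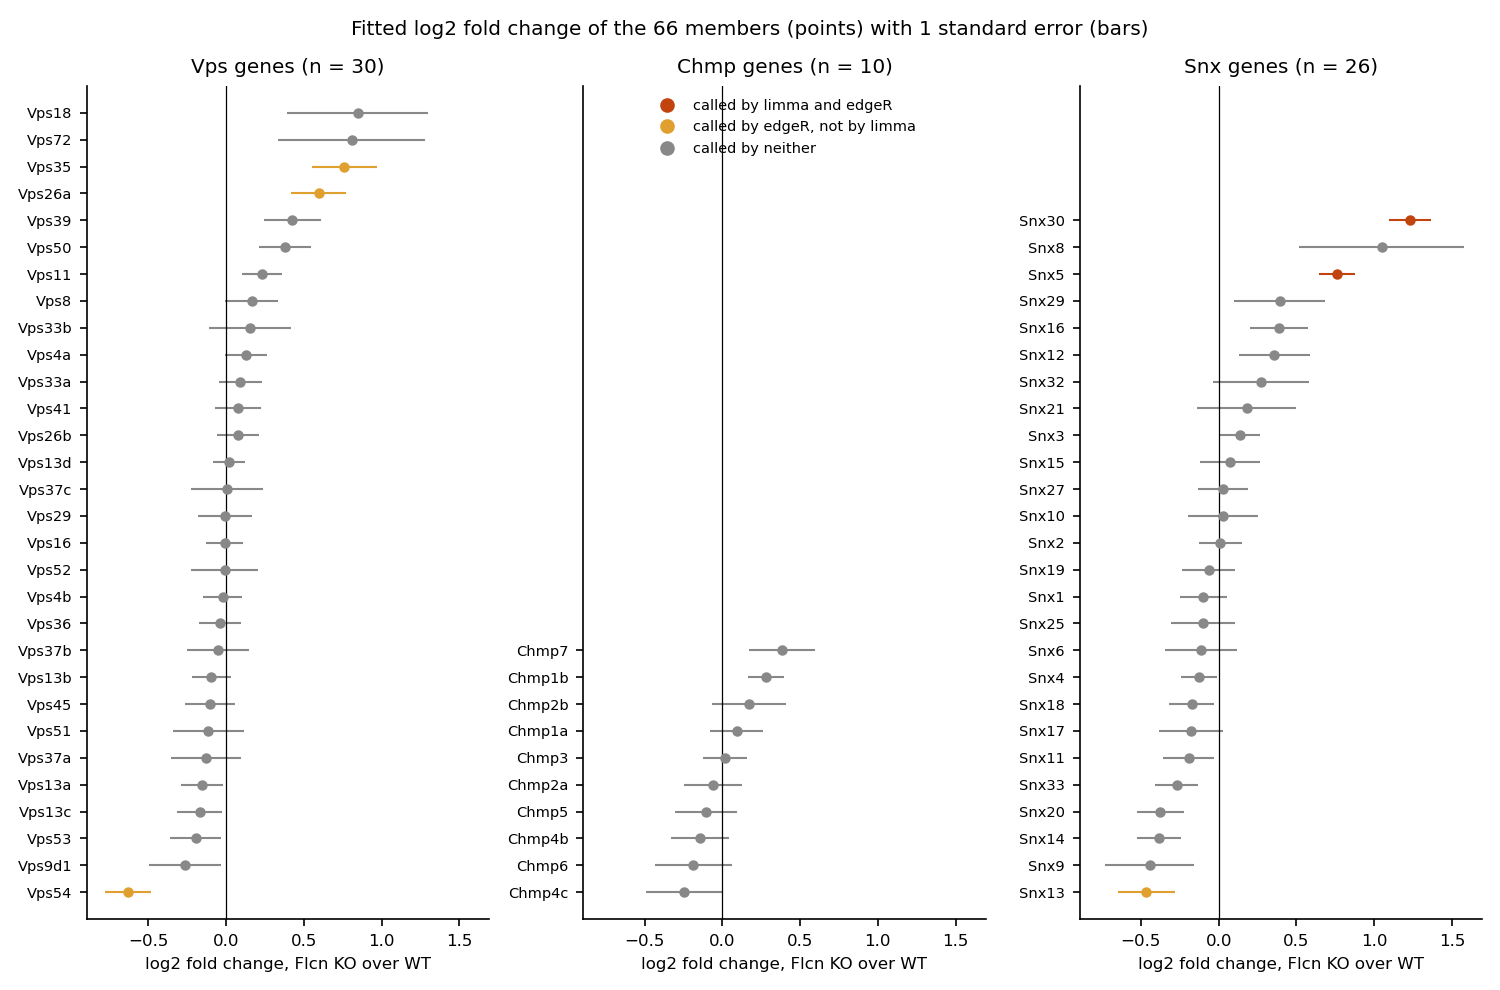
Fitted log2 fold change (Flcn KO over WT) of the 66 members, 1 row per gene and 1 panel per family, with bars of 1 standard error and colour for the tests that called the gene. Most members lie within 0.5 of zero; Snx30 (1.23) and Snx5 (0.76) stand out to the right with short bars, and Vps54 (-0.63) to the left.

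Retromer is the cargo-binding trimer that lifts receptors out of endosomes. EdgeR called 2 of its 4 genes, Vps35 and Vps26a, higher in Flcn KO cells, where it called 3.02% of its tested genes higher. Vps35 is the long scaffold of the trimer. Its normalized counts were 253, 224, 191, 184 and 152 in Flcn KO libraries and 175, 119, 85.3, 113 and 106 in WT libraries. The mean was 201 ± 38.8 in Flcn KO cells and 119.6 ± 33.3 in WT cells, and only WT replicate 1, at 175, reached into the Flcn KO range. The log2 fold change was 0.76 ± 0.21 (SE), with an adjusted p of 0.124 in limma and 0.00643 in edgeR. Vps26a, an arrestin-like subunit that joins the scaffold to cargo and sorting nexins, gave 292, 259, 248, 269.5 and 247 in Flcn KO libraries and 261, 143, 139, 164 and 184 in WT libraries. The WT libraries other than replicate 1 reached at most 184, below the lowest Flcn KO library at 247, while WT replicate 1 lay inside the Flcn KO range. Vps26a changed by 0.60 ± 0.18 on the log2 scale, with an adjusted p of 0.159 in limma and 0.0158 in edgeR. In Flcn KO replicate 2 the B cell markers summed to 481 normalized counts, below their sum in 4 WT libraries. Its myeloid and dendritic cell markers summed to 804, near the top of the WT range of 565 to 809. Vps35 was at 224 and Vps26a at 259 in this library, and the part of other cells in these values was not tested. Without WT replicate 1, limma called both, with 0.91 for Vps35 (adjusted p = 0.0457) and 0.74 for Vps26a (adjusted p = 0.0290). It called 1.48% of all tested genes in that fit. Of the 10 limma fits that left out 1 library, this was the only 1 that called either gene. Adjusted p in the others reached 0.241 for Vps35 and 0.294 for Vps26a. Their paralog and partner, chosen after their values were seen, stood near zero. Vps26b, the alternative to Vps26a in the trimer, averaged 202 ± 24.5 in Flcn KO cells and 191 ± 23.6 in WT cells, a log2 fold change of 0.08 ± 0.13. Vps29, the small remaining subunit, averaged 82.0 ± 8.86 in Flcn KO cells and 83.6 ± 19.2 in WT cells, a log2 fold change of -0.01 ± 0.17 (limma, adjusted p = 0.994).

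Among the sorting nexins with a BAR domain that work beside retromer, Snx5 alone of 5 was called. Limma called 0.944% of its tested genes higher and edgeR 3.02%. SNX5 or SNX6 pairs with SNX1 or SNX2 in the tubule coat that carries the mannose 6-phosphate receptor back to the Golgi. Snx5 gave 612, 592, 585, 536 and 591 normalized counts in Flcn KO libraries and 391, 319.7, 369, 325 and 317 in WT libraries. The lowest Flcn KO library stood far above the highest WT library, 391 in replicate 1. Snx5 rose to 583 ± 28.3 in Flcn KO cells, against 344 ± 33.7 in WT cells, by 0.76 ± 0.11 on the log2 scale (limma, adjusted p = 0.0125; edgeR, adjusted p = 1.52e-05). In Flcn KO replicate 2 the B cell markers summed to 481 and the myeloid and dendritic cell markers to 804, near the top of the WT range. Snx5 was at 592 in this library, and the part of other cells was not tested. The other 4 genes of the coat ran from -0.11 for Snx6 to 0.27 for Snx32. Snx2, a partner chosen after its values were seen, averaged 318 ± 38.2 in Flcn KO cells and 316 ± 40.6 in WT cells.

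Snx30 had the largest log2 fold change of all 66 members. It encodes a BAR sorting nexin that forms dimers with SNX4, in a recycling route separate from retromer. The Flcn KO libraries gave 95.2, 89.9, 102, 99.1 and 117 normalized counts, and the WT libraries 48.3, 46.3, 43.3, 40.8 and 33.6. The groups were far apart, with the lowest Flcn KO library at 89.9 and the highest WT library at 48.3. Snx30 rose by 1.23 ± 0.14 on the log2 scale (limma, adjusted p = 0.00206; edgeR, adjusted p = 2.92e-05), a mean of 101 ± 10.4 in Flcn KO cells against 42.4 ± 5.72 in WT cells. Flcn KO replicate 2, with B cell markers at 481 and myeloid and dendritic cell markers at 804, had 89.9. The part of other cells was not tested. Snx4, the dimer partner chosen after its values were seen, averaged 239 ± 23.0 in Flcn KO cells and 260.4 ± 20.7 in WT cells, a log2 fold change of -0.13 ± 0.12. Snx8, which encodes a further BAR nexin of the endosome, had the lowest level per length of the Snx genes and only 1 to 18 reads per library. Its normalized counts were 6.0, 6.66, 13.3, 14.9 and 6.28 in Flcn KO libraries and 7.43, 12.8, 1.27, 1.13 and 3.15 in WT libraries. These ranges overlapped, and limma gave 1.05 ± 0.53 with an adjusted p of 0.425; edgeR did not test it.

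**Figure D2:**
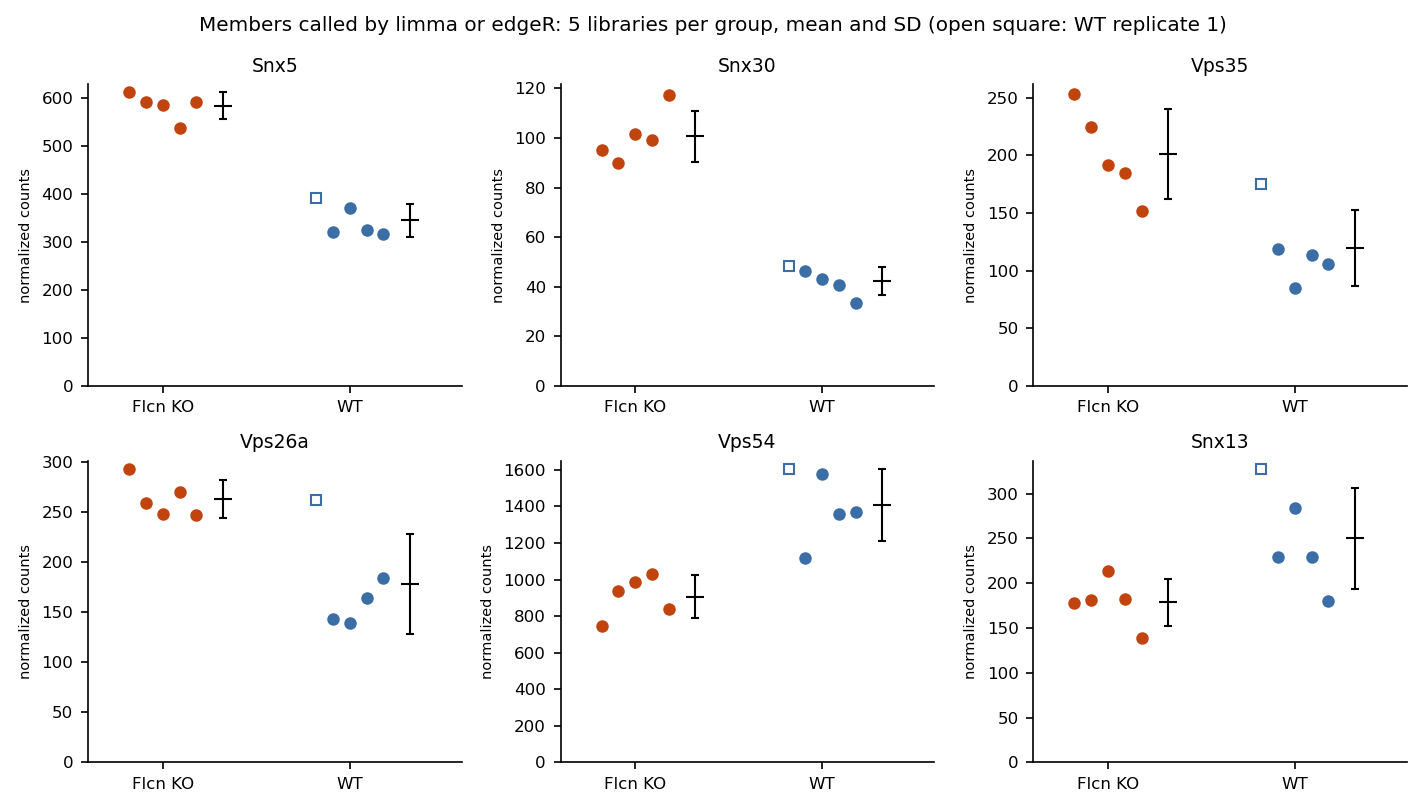
Normalized counts of the 6 members called by limma or edgeR, 1 point per library with mean and SD beside them, Flcn KO left of WT, and WT replicate 1 as an open square. Snx5, Snx30 and Vps54 show no overlap of the groups, while for Vps35 and Vps26a WT replicate 1 alone lies within the Flcn KO range.

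Log2 ratios of related genes within each library were taken after adding 1 to each normalized count. Apart from that added 1 they do not depend on the library's scaling. They are given as a description with no test, since the pairs were chosen after the members' values were seen. Of the 22 pairs formed, the groups failed to overlap for 5, and each of these 5 is given below. All 5 have Snx5, Vps35 or Vps26a over a gene already seen to be at similar levels in both groups. They therefore restate the differences of those genes and are no separate results. Single genes failed to overlap for 4.92% of all tested genes, and no share over all possible pairs was computed. The log2 ratio of Snx5 to Snx6 was 2.93 to 3.46 in Flcn KO libraries and 1.62 to 2.57 in WT libraries. For Snx5 over Snx2 it was 0.69 to 1.20 in Flcn KO libraries and 0.01 to 0.23 in WT libraries. The ratio to Snx1 was 2.49 to 3.04 in Flcn KO libraries and 1.59 to 2.38 in WT libraries, so all 3 Snx5 ratios were higher in each Flcn KO library than in any WT library. The log2 ratio of Vps35 to Vps29 was 0.93 to 1.67 in Flcn KO libraries and 0.31 to 0.66 in WT libraries, and here WT replicate 1 did not reach the Flcn KO range. Vps26a over Vps29 gave 1.54 to 1.87 in Flcn KO libraries and 0.58 to 1.27 in WT libraries. Vps26a over Vps26b overlapped, at 0.25 to 0.51 in Flcn KO libraries and -0.49 to 0.58 in WT libraries, where WT replicate 1 was the highest of all 10 libraries.

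**Figure D3:**
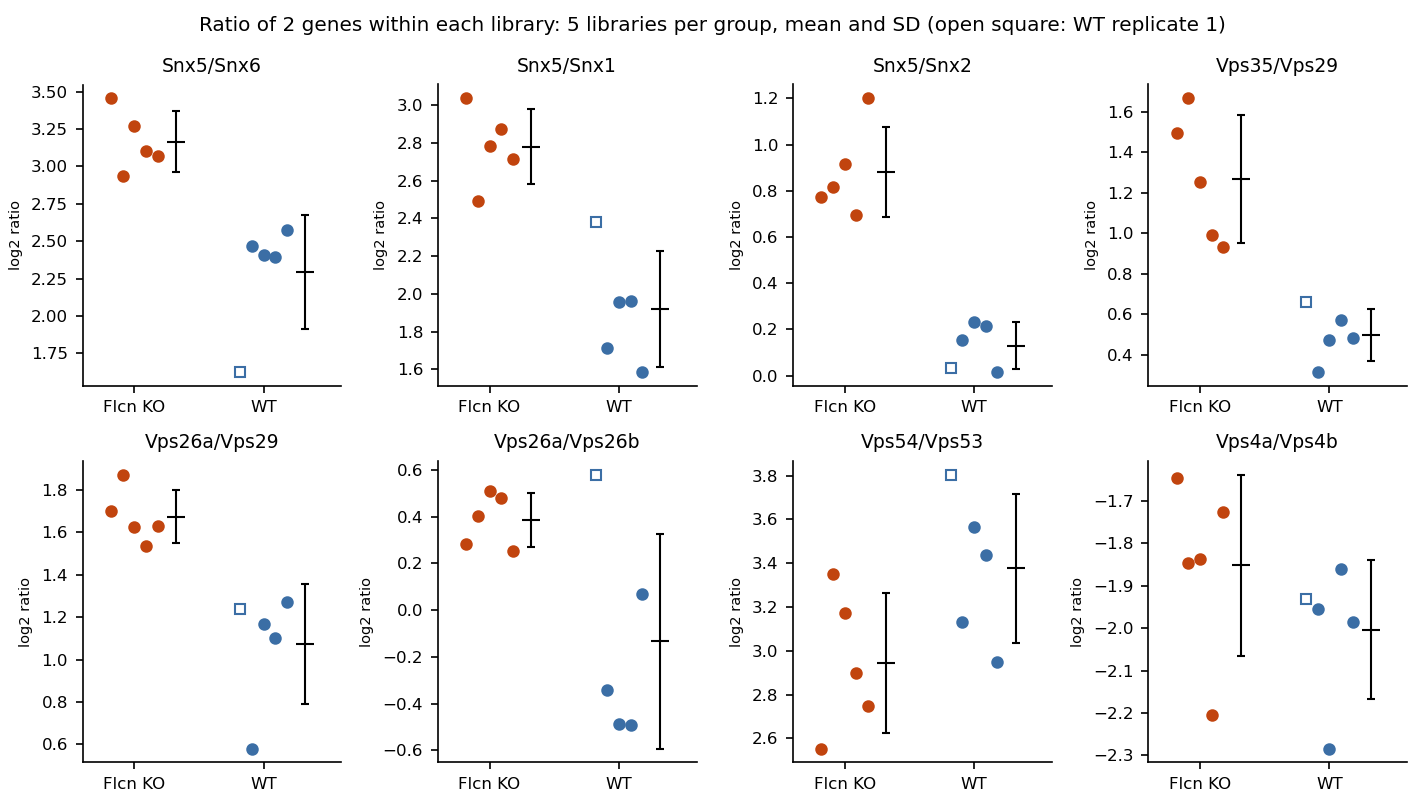
Log2 ratio of related genes in each library, from normalized counts with 1 added, for 8 of the 22 pairs. Mean and SD are beside the points, Flcn KO is left of WT, and WT replicate 1 is an open square. The Snx5 ratios and the ratios of Vps35 and Vps26a to Vps29 lie higher in each Flcn KO library than in any WT library, and the Vps54/Vps53 and Vps4a/Vps4b ratios overlap.

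TFEB and TFE3 are known to bind the E-box CACGTG, often within the longer palindrome GTCACGTGAC, and the promoters of the members were searched for these letters. RefSeq windows from 250 bases before to 50 after a transcript start (GRCm38.p6) were at hand for 44 of the 66 members, and not for Vps35. The coordinates are of that build, while the expression values rest on mm9. The 250 bases before the start are shown, 5′ to 3′ on the gene's strand, for 4 called members (Snx5, Snx30, Vps26a, Vps54) and for the other 2 members with the palindrome (Vps16, Vps33a). Capitals mark CACGTG, extended to GTCACGTGAC where the full palindrome is present.
Snx5, chr2:144270573-144270822, minus strand: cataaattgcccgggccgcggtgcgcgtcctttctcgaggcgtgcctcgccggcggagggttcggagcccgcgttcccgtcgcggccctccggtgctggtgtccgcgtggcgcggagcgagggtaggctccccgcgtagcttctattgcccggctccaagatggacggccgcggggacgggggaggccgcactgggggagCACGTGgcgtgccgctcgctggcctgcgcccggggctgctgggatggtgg
Snx30, chr4:59805400-59805649, plus strand: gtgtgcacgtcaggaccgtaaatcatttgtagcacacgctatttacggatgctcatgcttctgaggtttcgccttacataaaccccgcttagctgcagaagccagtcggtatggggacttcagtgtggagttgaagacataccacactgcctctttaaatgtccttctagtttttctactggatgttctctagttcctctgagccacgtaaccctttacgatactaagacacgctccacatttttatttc
Vps26a, chr10:62486806-62487055, minus strand: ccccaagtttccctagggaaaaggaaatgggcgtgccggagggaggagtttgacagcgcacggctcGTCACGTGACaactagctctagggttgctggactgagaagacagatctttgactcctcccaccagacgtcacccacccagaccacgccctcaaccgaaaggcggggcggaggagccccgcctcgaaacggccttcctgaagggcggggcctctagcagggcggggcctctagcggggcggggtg
Vps54, chr11:21238782-21239031, plus strand: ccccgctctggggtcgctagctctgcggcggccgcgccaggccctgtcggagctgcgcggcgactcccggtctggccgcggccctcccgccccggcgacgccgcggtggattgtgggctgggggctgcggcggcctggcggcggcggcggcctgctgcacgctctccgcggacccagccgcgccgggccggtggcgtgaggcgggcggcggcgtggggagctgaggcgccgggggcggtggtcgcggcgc
Vps16, chr2:130424070-130424319, plus strand: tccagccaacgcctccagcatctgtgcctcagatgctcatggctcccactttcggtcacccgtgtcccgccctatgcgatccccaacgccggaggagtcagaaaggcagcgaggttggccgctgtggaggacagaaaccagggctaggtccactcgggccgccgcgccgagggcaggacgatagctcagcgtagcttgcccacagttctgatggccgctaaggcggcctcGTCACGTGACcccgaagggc
Vps33a, chr5:123573016-123573265, minus strand: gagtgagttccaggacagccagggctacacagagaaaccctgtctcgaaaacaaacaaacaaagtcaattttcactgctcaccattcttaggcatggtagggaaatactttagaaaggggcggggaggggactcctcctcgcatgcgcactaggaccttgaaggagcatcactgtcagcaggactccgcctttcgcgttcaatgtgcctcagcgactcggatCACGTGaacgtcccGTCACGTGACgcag
The Snx5 window held CACGTG at 50 bases before the start, and the Vps26a window held the whole palindrome 184 bases before the more upstream of its 2 starts. The windows of Snx30, which had the largest fold change, and of Vps54 held neither. Vps16 and Vps33a, core subunits of HOPS and CORVET, held the palindrome within 20 bases of the start. Their levels were alike in both genotypes, with log2 fold changes of -0.01 and 0.09. Counted on both strands over the 300-base windows, CACGTG was in 7 of 44 members (15.9%), in 7.15% of all 32851 windows and in 11.6% of 9349 tested genes with a window. TCACGTG, which lies within the palindrome, was in 4 members (9.09%) and 6.94% of tested genes. GTCACGTGAC was in 3 members (6.82%) and 0.845% of tested genes. The 7 members with CACGTG were Snx18, Snx5, Snx8, Vps16, Vps26a, Vps33a and Vps50. Their log2 fold changes ran from -0.17 for Snx18 to 1.05 for Snx8, which had only 1 to 18 reads per library. The median was 0.38 for these 7 and -0.02 for the 37 without CACGTG. It was 0.24 for the 4 with TCACGTG (-0.02 without) and 0.09 for the 3 with GTCACGTGAC (-0.01 without). Over tested genes with a window the median was 0.084 with CACGTG and 0.0014 without. There it was 0.084 with TCACGTG (0.0050 without) and 0.061 with GTCACGTGAC (0.0096 without). A match is a description of letters, not a site or a cause.

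Vps54 had the highest level per length of the members, averaged over all 10 libraries, and was the only one whose Flcn KO libraries all lay below the WT libraries. VPS54 is the subunit that makes the tethering complex GARP, by joining VPS51, VPS52 and VPS53, which the EARP complex shares. Its normalized counts were 744, 937, 985, 1033 and 836 in Flcn KO libraries and 1605, 1117, 1578, 1361 and 1368 in WT libraries. The highest Flcn KO library, 1033, was close to the lowest WT library, 1117. Vps54 averaged 907 ± 116 in Flcn KO cells and 1406 ± 198 in WT cells, a log2 fold change of -0.63 ± 0.15. It passed edgeR (adjusted p = 0.000728) and the authors' deposited table (adjusted p = 6.35e-06), but missed limma (adjusted p = 0.0724). In limma on genes with a mean of at least 10 normalized counts it passed (adjusted p = 0.0384). Without WT replicate 1 edgeR still called it (-0.58, adjusted p = 0.000597), while limma did not (adjusted p = 0.116). In the 10 fits that left out 1 library limma called it in 0 (adjusted p from 0.0614 to 0.166). The shared subunits, chosen after their values were seen, had log2 fold changes of -0.11 ± 0.23 for Vps51, -0.01 ± 0.21 for Vps52 and -0.20 ± 0.16 for Vps53. Vps50, which takes the place of Vps54 in EARP, averaged 156 ± 11.6 in Flcn KO cells and 122 ± 26.5 in WT cells, 0.38 ± 0.17 on the log2 scale (limma, adjusted p = 0.347). The within-library ratio of Vps54 to Vps53 overlapped between groups, at 2.55 to 3.35 in Flcn KO libraries and 2.95 to 3.80 in WT libraries. The Vps54 ratios to Vps51 and Vps52 overlapped too.

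The sorting nexins with PXA or RGS domains, most of them anchored in membrane of the endoplasmic reticulum, were the 4 genes Snx13, Snx14, Snx19 and Snx25. All 4 log2 fold changes were negative, with a median of -0.24, also under the scaling alternatives run. Limma called 0 of them, with 2 lower at an unadjusted p under 0.05 (6.88% of all tested genes). EdgeR and DESeq2 called 1 lower, where edgeR called 2.62% of its tested genes lower and DESeq2 348 of 14738. Snx13 gave 177, 181, 213, 182 and 139 normalized counts in Flcn KO libraries and 327, 229, 284, 229 and 181 in WT libraries. WT replicate 5 lay within the Flcn KO range and the other WT libraries above it. The log2 fold change was -0.47 ± 0.18, with an adjusted p of 0.288 in limma and 0.0454 in edgeR, and edgeR without WT replicate 1 no longer called it (-0.38, adjusted p = 0.100). Snx14, chosen after its values were seen, averaged 136 ± 17.1 in Flcn KO cells and 178 ± 24.97 in WT cells (limma, adjusted p = 0.249; edgeR, adjusted p = 0.0765).

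The nexins with an SH3 domain beside the BAR domain (Snx9, Snx18, Snx33) serve endocytosis with dynamin, and limma, edgeR and DESeq2 called 0 of these 3, with 0 at an unadjusted p under 0.05 in limma. Snx9 showed the largest difference of them, with 30.9, 26.6, 39.8, 13.9 and 36.4 normalized counts in Flcn KO libraries and 33.4, 37.0, 42.0, 55.5 and 28.3 in WT libraries. These ranges overlapped, and the log2 fold change was -0.44 ± 0.29 (limma, adjusted p = 0.545) and -0.21 without Flcn KO replicate 4, the lowest library at 13.9. Of the FERM-domain nexins, Snx17, which sends integrins and other cargo back to the surface, gave 56.6, 62.2, 60.8, 51.5 and 43.3 in Flcn KO libraries and 86.7, 69.8, 57.3, 39.7 and 65.1 in WT libraries. Here too the groups overlapped, with all Flcn KO values inside the WT range. The log2 fold change was -0.18 ± 0.21 (limma, adjusted p = 0.771), and it was -0.058 without WT replicate 1 and -0.34 without WT replicate 4. The remaining 9 nexins lie outside the BAR, FERM and RGS or PXA groups, and some carry domains beside the phosphoinositide-binding PX domain. Of these 9, 7 log2 fold changes were positive and the median was 0.14. Limma, edgeR and DESeq2 called 0 of them, with 1 lower at an unadjusted p under 0.05 in limma (6.88% of all tested genes). Snx29 had the largest, 0.39 ± 0.30, with 32.6, 35.5, 37.6, 31.7 and 37.0 normalized counts in Flcn KO libraries and 11.1, 35.6, 26.7, 28.3 and 40.9 in WT libraries (limma, adjusted p = 0.619). WT replicate 1, at 11.1, was the lowest library for this gene, and without it the log2 fold change was 0.099 in limma and 0.070 in edgeR. Snx12, chosen after its values were seen, is the paralog of the retromer adaptor Snx3 and gave 211 to 259 in Flcn KO libraries, against 127 to 163 in 4 WT libraries and 322 in WT replicate 1. It had an adjusted p of 0.538 in limma and 0.414 in edgeR, and edgeR without WT replicate 1, which called 6.35% of its tested genes, called it higher (0.57, adjusted p = 0.00245).

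HOPS and CORVET share a core of 4 subunits (Vps11, Vps16, Vps18, Vps33a), to which HOPS adds Vps39 and Vps41 and CORVET adds Vps8. Of these 7 genes 6 had positive log2 fold changes, with a median of 0.16. Limma, edgeR and DESeq2 called 0 of them, with 1 higher, Vps39, at an unadjusted p under 0.05 in limma (7.16% of all tested genes). Vps39, the HOPS subunit whose yeast counterpart binds the RAB7 homologue on the vacuole, gave 187, 194, 148, 198 and 189.6 normalized counts in Flcn KO libraries and 90.4, 169, 159, 137 and 136 in WT libraries. Its groups overlapped through Flcn KO replicate 3, at 148, and the log2 fold change was 0.43 ± 0.18 (limma, adjusted p = 0.329; edgeR, adjusted p = 0.128). Without WT replicate 1, the lowest library at 90.4, it was 0.28, and 5 of the 7 HOPS and CORVET genes were positive. Vps18 had the lowest level per length of the Vps genes, with 32.6, 23.3, 26.5, 16.8 and 38.9 in Flcn KO libraries and 6.19, 7.12, 30.6, 30.6 and 13.6 in WT libraries. The WT libraries were split over a wide range, and the log2 fold change of 0.85 ± 0.45 did not pass (limma, adjusted p = 0.459). Vps8 gave 58.3, 75.5, 64.1, 75.3 and 43.3 in Flcn KO libraries and 54.5, 57.0, 52.2, 64.6 and 49.3 in WT libraries, 0.16 ± 0.17 on the log2 scale (limma, adjusted p = 0.738).

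A pair of Sec1/Munc18-like proteins, which hold SNAREs during fusion, act outside these complexes. Vps33b, which works with VIPAS39 in sorting to secretory granules and lysosomes, gave 132, 119, 88.4, 101 and 118 normalized counts in Flcn KO libraries and 192, 96.8, 64.9, 88.4 and 90.3 in WT libraries. WT replicate 1, at 192, stood above all other libraries, and the log2 fold change was 0.15 ± 0.26 with all libraries and 0.39 without it (limma, adjusted p = 0.857 and 0.340). Vps45, which acts with syntaxin 16 between early endosomes and the Golgi, gave 18.0, 24.4, 25.4, 29.7 and 24.5 in Flcn KO libraries and 22.3, 29.2, 31.8, 22.7 and 25.2 in WT libraries. These values overlapped throughout (-0.10 ± 0.16; limma, adjusted p = 0.842).

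The ESCRT genes showed 0 calls by limma, edgeR or DESeq2 among 3 ESCRT-I, 1 ESCRT-II, 10 ESCRT-III and 2 VPS4 genes. At an unadjusted p under 0.05 limma placed 1 higher, Chmp1b, and 0 lower (7.16% and 6.88% of all tested genes). The ESCRT-III genes, all of the Chmp family, split evenly, with 5 of 10 positive, a median of -0.02 and a range from -0.25 for Chmp4c to 0.39 for Chmp7. Chmp7, which brings ESCRT-III to the nuclear envelope, gave 55.7, 61.1, 45.3, 36.7 and 44.6 normalized counts in Flcn KO libraries and 27.2, 33.5, 54.7, 30.6 and 42.0 in WT libraries. WT replicate 3 stood among the higher Flcn KO libraries, and the adjusted p was 0.479 in limma for 0.39 ± 0.21. Chmp4c, which delays the final cut of cell division and had the lowest level per length of the family, gave 13.7, 15.5, 15.5, 17.8 and 22.0 in Flcn KO libraries and 11.1, 19.2, 20.4, 23.8 and 30.4 in WT libraries (-0.25 ± 0.24; limma, adjusted p = 0.721). Leaving out WT replicate 1 gave -0.45, and leaving out WT replicate 5 gave -0.10. Chmp2a, a core subunit of the filament with the highest level per length of the family, gave 135, 85.5, 72.9, 78.3 and 102 in Flcn KO libraries and 91.6, 94.7, 121, 81.6 and 97.6 in WT libraries. Its groups overlapped throughout, with -0.06 ± 0.19 (limma, adjusted p = 0.925).

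Upstream and downstream of the filament the values were as close. Vps37a, an ESCRT-I subunit, gave 129, 152, 191, 180.4 and 174 normalized counts in Flcn KO libraries and 307, 164, 135, 179 and 150.1 in WT libraries. WT replicate 1, at 307, lay far above the rest, and the log2 fold change of -0.13 ± 0.22 turned to 0.068 without it (limma, adjusted p = 0.866 and 0.890). Vps36, the ubiquitin-binding subunit of ESCRT-II, gave 124, 133, 128, 99.1 and 99.8 in Flcn KO libraries and 114, 109, 121, 139 and 114 in WT libraries (-0.04 ± 0.14; limma, adjusted p = 0.942). Vps4a, 1 of the 2 ATPases that take the filament apart, gave 63.4, 58.8, 60.8, 52.5 and 65.3 in Flcn KO libraries and 48.3, 57.7, 49.7, 69.1 and 51.4 in WT libraries. Its paralog Vps4b, chosen after its values were seen, averaged 219.8 ± 16.4 in Flcn KO cells and 224 ± 27.5 in WT cells. Neither ATPase passed, with 0.13 ± 0.13 for Vps4a and -0.02 ± 0.13 for Vps4b (limma, adjusted p = 0.739 and 0.967).

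The 4 VPS13 genes encode long bridge proteins that move lipids between membranes, and limma, edgeR and DESeq2 called 0 of them, with 0 at an unadjusted p under 0.05 in limma. Vps13c, whose protein bridges the endoplasmic reticulum to late endosomes, gave 378, 429.7, 410.0, 517 and 519.9 normalized counts in Flcn KO libraries and 405, 488, 535, 531 and 576 in WT libraries. The groups overlapped, and the log2 fold change was -0.17 ± 0.15 (limma, adjusted p = 0.678). The other 3 ran from -0.16 to 0.02. The symbol rule also took Vps72, which encodes a subunit of chromatin complexes that handle histone H2A.Z and is no endosomal protein in mammals. Vps72 gave 42.9, 51.1, 34.3, 45.6 and 32.02 in Flcn KO libraries and 4.95, 40.6, 26.7, 32.9 and 31.5 in WT libraries, where replicate 1 had the lowest value of all. Its log2 fold change of 0.81 ± 0.47 (limma, adjusted p = 0.503) became 0.31 without that library.

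Levels between genes are compared per kilobase of the longest protein-coding transcript of GENCODE vM21. By the mean over all 10 libraries Vps54 was highest on that scale, at 209.8 normalized counts per kilobase in Flcn KO cells and 325 in WT cells, and it exceeded its GARP partner Vps53 (41.4 in Flcn KO cells, 47.6 in WT cells) several-fold. Snx5 came next, at 232 in Flcn KO cells and 137 in WT cells, followed by Snx2, at 154 in Flcn KO cells and 153 in WT cells. Snx5 and Snx2 thus stood at a similar level in WT cells, and Snx5 above Snx2 in Flcn KO cells. Snx1, the other coat partner, was at 40.9 in Flcn KO cells and 43.7 in WT cells. Within retromer, Vps26a was at 97.0 in Flcn KO cells and 65.7 in WT cells, Vps35 at 57.8 in Flcn KO cells and 34.4 in WT cells, and Vps29 at 30.2 in Flcn KO cells and 30.8 in WT cells. The lowest levels per length were those of Snx8 (3.58 in Flcn KO cells, 1.96 in WT cells) and Chmp4c (2.73 in Flcn KO cells, 3.39 in WT cells). Which transcripts these cells use was not measured, so these levels depend on the transcript chosen.

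**Figure D4:**
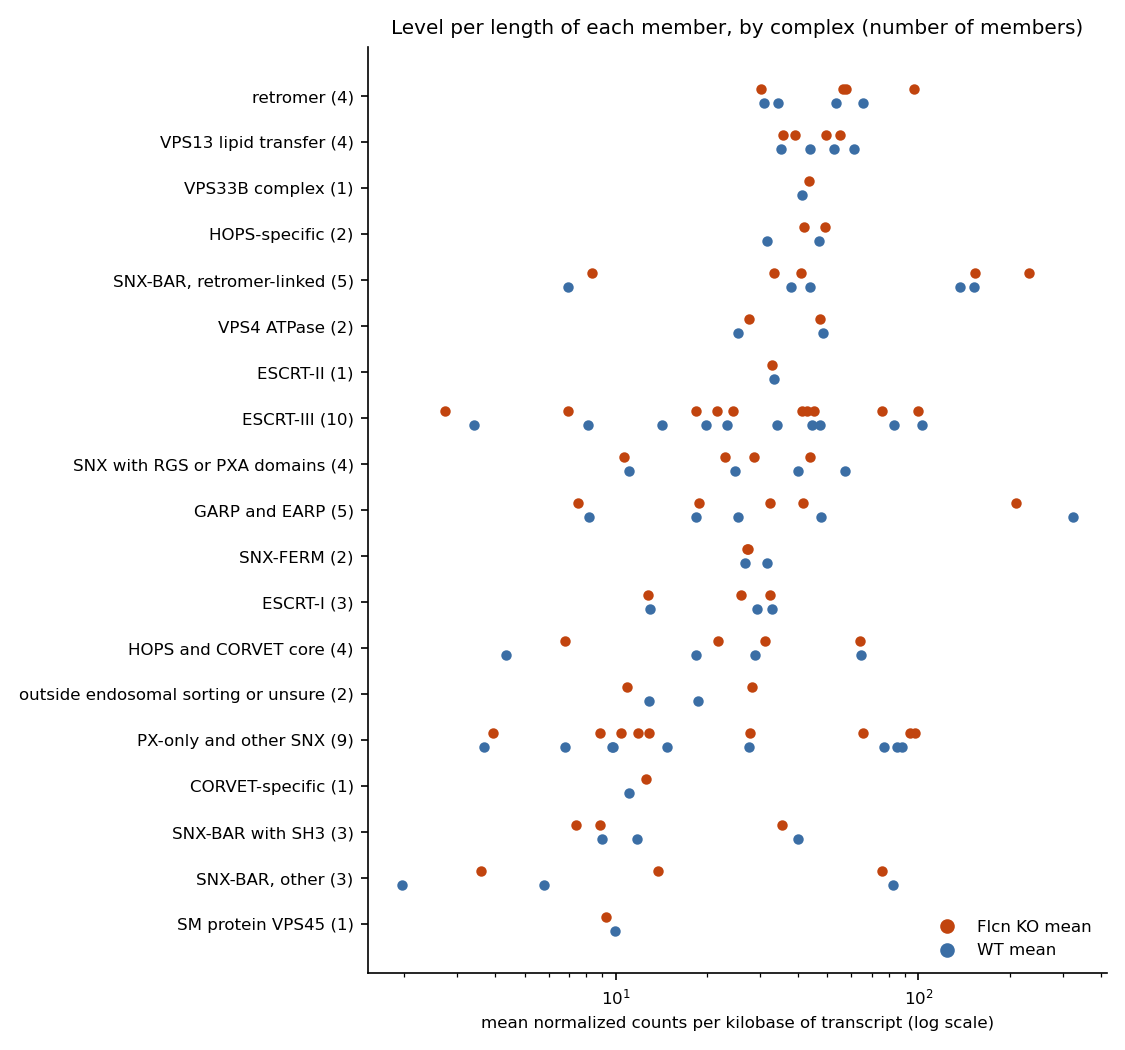
Mean normalized counts per kilobase of transcript (log axis) for each of the 66 members, grouped by complex, with Flcn KO means drawn above WT means. Vps54 in the GARP and EARP row, and Snx5 and Snx2 among the retromer-linked nexins, lie furthest right, and most pairs of points nearly coincide.

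Partners of these proteins whose symbols the rule does not match were listed by complex, and 100 of the 104 listed genes were tested. Limma called 3 higher in Flcn KO cells and 0 lower (15 higher and 4 lower at an unadjusted p under 0.05), where it called 0.944% of all tested genes higher and 0.768% lower (7.16% higher and 6.88% lower at an unadjusted p under 0.05). EdgeR called 7 partners higher and 1 lower, against 3.02% higher and 2.62% lower of its tested genes. Ptpn23, an ESCRT-linked phosphatase-like protein that helps bring cargo to ESCRT-III, gave 96.9, 99.9, 97.2, 87.2 and 96.1 normalized counts in Flcn KO libraries and 55.7, 48.4, 52.2, 41.9 and 73.5 in WT libraries. All Flcn KO libraries exceeded all WT libraries, and Ptpn23 rose by 0.82 ± 0.15 on the log2 scale (limma, adjusted p = 0.0278). Arl8b, a lysosomal GTPase that recruits HOPS, gave 219, 242, 262, 233 and 249 in Flcn KO libraries and 168, 166, 145, 189 and 143 in WT libraries. These too did not overlap, and Arl8b rose by 0.57 ± 0.12 (limma, adjusted p = 0.0485). Gga2, a clathrin adaptor for mannose 6-phosphate receptors at the Golgi, gave 26.6, 40.0, 40.9, 39.6 and 37.7 in Flcn KO libraries and 1.238, 7.83, 6.37, 11.3 and 8.40 in WT libraries. It rose by 2.42 ± 0.40 on the log2 scale (limma, adjusted p = 0.0175), the largest change in the partner list. These calls rested on all 10 libraries: with 1 library left out, limma lost Arl8b in each fit (adjusted p from 0.0588 without WT replicate 4 to 0.125 without Flcn KO replicate 5), Ptpn23 in all but those without WT replicate 1 or 5 (adjusted p up to 0.0760), and Gga2 without Flcn KO replicate 2 (2.39, adjusted p = 0.0502). Without WT replicate 1 edgeR called all of them.

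Of the partners that edgeR and the authors' deposited table called and limma did not, chosen after their values were seen, Eea1, an early endosome tether, was lower, at 182 ± 33.1 in Flcn KO cells and 313 ± 82.4 in WT cells (-0.76; edgeR, adjusted p = 0.00304). The other 4, all higher, were Tom1 and Tollip, a pair of adaptors for ubiquitin-tagged cargo, Commd4 of the CCC complex, and Washc5 (listed as E430025E21Rik) of the actin-building WASH complex that retromer recruits. Their limma adjusted p-values ran from 0.0910 to 0.151. Over the 100 partners the median log2 fold change was 0.10 and 69 were positive, against 0.0034 and 50.6% over all tested genes. In the WASH, CCC and retromer list 17 of 22 were positive with a median of 0.19. Limma called 0 of them, with 7 higher at an unadjusted p under 0.05 (7.16% of all tested genes), and edgeR called 2 higher (3.02% of its tested genes). The ESCRT partners split 9 of 17 with a median of 0.01. No list is called particular from these medians, and leaving out WT replicate 1 gave 64 of 100 positive partners.

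**Figure D5:**
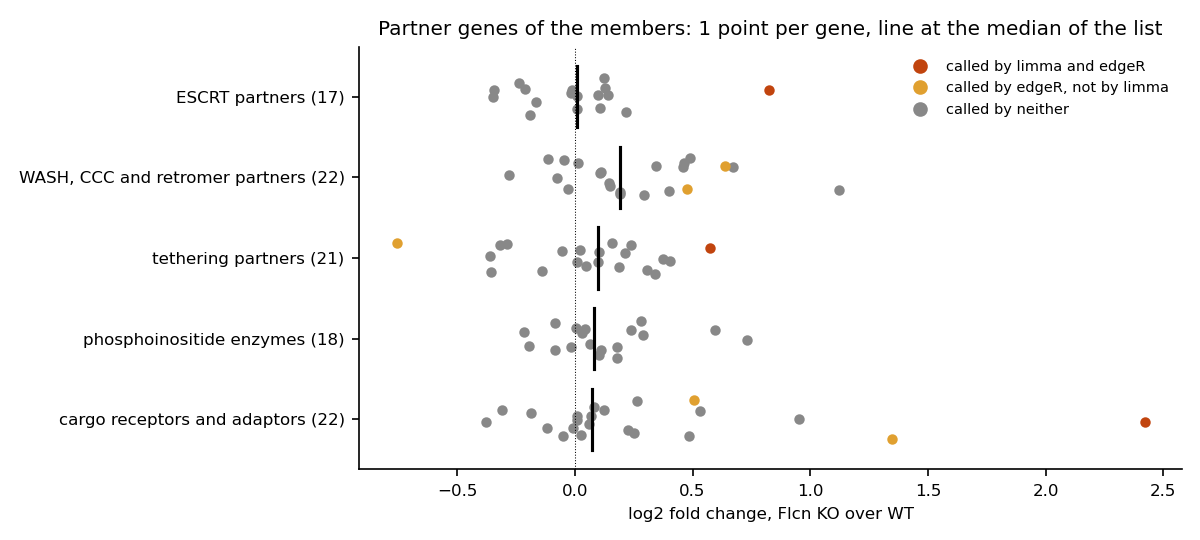
Log2 fold change (Flcn KO over WT) of the 100 tested partner genes by list, 1 point per gene with a line at each list's median, coloured by the tests that called the gene. Gga2 (2.42) lies furthest right and Eea1 (-0.76) furthest left, and the line of the WASH, CCC and retromer list (0.19) lies right of the ESCRT line (0.01).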

How the data were processed

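The deposited table gave, per the labels, 10 libraries (5 Flcn KO, 5 WT). Its signal columns, per the file headers 1 per sample code, are read as normalized counts: in each library 100% of values were whole multiples, within 0.01 reads, of what 1 read was worth (0.628 to 1.27). Size factors recomputed with DESeq2 differed by at most 0.0238%. The authors also deposited their own comparison as a log2 fold change, a standard error and Wald statistic (scores) and p-values. The submitters' processing notes name Trimmomatic 0.36, STAR 2.5.3a, RSEM 1.3.1, DESeq2 1.24.0 and mm9, with no role or order; no annotation or strand setting is given in the sources used here. Without a strand setting, reads of overlapping genes cannot be told apart. Sample codes number WT before Flcn KO, so any effect of that order and genotype cannot be told apart.

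Limma 3.58.1 (R 4.3.3) was fitted on log2(normalized count + 1) for 14723 genes with at least 1 normalized count in at least 5 libraries, genotype alone, eBayes without trend or robust settings. The added 1 understates changes of low genes, yet limma's changes of low members were not all smaller than those of DESeq2. For Snx8 limma gave 1.05 and DESeq2 0.78, and for Chmp4c limma gave -0.25 and DESeq2 -0.30. edgeR 4.0.16 (TMM) and DESeq2 1.42.0 were run on the recovered reads, and the fits were tested on simulated data. Alternatives were pseudocounts 0.5 and 5, no filter, a mean of at least 10, TMM scaling, trend and robust moderation, each library left out, and the replicate number as a block. The members, gene lists and tests were chosen with earlier results of these data known. Named with all values were members called by limma, edgeR or the authors' deposited table, the largest change in each complex among genes with a mean of at least 10, and the highest and lowest level per length in each family; others were named after their values were seen. No molecular identifiers are named, so reads are not taken as independent molecules. Whether libraries came from separate mice is given only as "biological replicates", so p-values measure the spread between these samples. Library pairs within a group differed by more than counting noise, so none was merged. Promoters are RefSeq's for GRCm38.p6, lengths GENCODE vM21's, matched by symbol.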

Additional observations from a re-analysis of the deposited data

Results flagged for a closer look

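Flcn and the 23 members named by rule gave 48 groups of 5 libraries, examined for a library far from the others. Partners, and members named after their values were seen, were not examined. By chance alone about 1 in 20 groups is marked. In 4 of the 48 groups the gap from the extreme library to its nearest neighbour took more than 0.71 of the group's whole range. Vps39 in Flcn KO replicate 3 was at 148 normalized counts, with the other 4 Flcn KO libraries at 187 to 198. The other 3 values all belong to WT replicate 1, the library with 44.1% mitochondrial rRNA reads. In it Vps37a was at 307 (135 to 179 in the other WT libraries), Vps33b at 192 (64.9 to 96.8) and Flcn at 78.0 (45.6 to 54.7). The part of that library's composition in these values was not tested.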

How the results depend on the processing

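With all 10 libraries limma called 2 members, 252 genes in all and 3 partners. DESeq2 called 6, 727 and 9, edgeR with TMM 6, 592 and 8, edgeR with the deposited size factors 6, 585 and 8, limma with trend and robust settings 5, 598 and 7, and, in the authors' deposited table, the counts were 5, 703 and 9. Leaving out 1 library gave 2 to 4 members, 122 to 217 genes and 1 to 2 partners, with 4 members without WT replicate 1. Without WT replicate 1 edgeR, chosen after seeing the data, called 6 members, 682 genes and 8 partners. Snx5 and Snx30 were called by limma in each of the 10 fits that left out 1 library. The cause of the differences between tests was not tested. The members' median log2 fold change was -0.044 without WT replicate 5, the lowest of the fits that left out 1 library (highest 0.026). Of 568 single-gene values, 514 kept direction and call, 23 lost and 24 gained the call, and 7 changed sign. These were Vps37a without WT replicate 1 (0.068 in limma, 0.065 in edgeR; range -0.23 to 0.068), Vps36 without Flcn KO replicate 4 or 5 or WT replicate 4 (range -0.087 to 0.019) and Chmp2a without replicate 3 of either group (range -0.20 to 0.022).

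The replicate block left 0 members, 59 genes and 1 partner called. In it Snx5 and Snx30 lost their calls (limma, adjusted p = 0.0842 and 0.0561). Same-numbered libraries correlated at 0.00923 to 0.0325 and 0 of 5 Flcn KO libraries correlated best with their own number. Low correlations cannot show whether same-numbered libraries share a batch, and the labels do not say. Depth limits the low members: Snx8 and Snx21 did not enter edgeR. The fold change of Flcn was 1.304 to 1.495 on the log2 scale when 1 library was left out.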

Other observations

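Some members share exon bases with a neighbour (GENCODE vM21), and without a stated strand setting their reads may be shared. Snx5 shares 4.93% of its exon bases with Mgme1 on the other strand (log2 fold change 0.33; limma, adjusted p = 0.754), and Snx30 shares 3.08% with the pseudogene Gm12543 on its own strand (0.88; limma, adjusted p = 0.349). Vps35 shares 1.92% with Orc6 (-0.45; limma, adjusted p = 0.312). Fam216a, opposite 5.53% of the exon bases of Vps29, was lower in Flcn KO cells (-1.25; limma, adjusted p = 0.0376), while Vps29 stood at -0.01. Snx16 and Chmp4c lie end to end and share 330 exon bases, with log2 fold changes of 0.39 and -0.25. Vps37b shares 32.9% of its exon bases with Hip1r, which had -0.75 (limma, adjusted p = 0.267), while Vps37b stood at -0.05.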
